A study of Mus musculus with 2 samples.

Results

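DNA methylation was described in the genes of the enzymes that set and remove it. The 10 genes were the methyltransferases Dnmt1, Dnmt3a and Dnmt3b, their cofactors Dnmt3l and Uhrf1, the dioxygenases Tet1, Tet2 and Tet3, the glycosylase Tdg and the DNA repair adaptor Gadd45a. Each gene was taken as its mm9 gene body plus 2000 bases upstream of the gene start. Of the 826937 CpG positions measured in both cell types, 669 lay in these windows, and all 10 genes held at least 1 of them.

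The data were from reduced representation bisulfite sequencing (RRBS), in which DNA is cut with MspI at CCGG and unmethylated cytosines are converted before sequencing. A library came from wild-type mouse embryonic fibroblasts (wt MEFs) and 1 from MEFs of ESR2 -/- mice, which lack oestrogen receptor β (βerko MEFs), both on the C57BL/6 strain and both grown in high glucose DMEM with 10% FCS. Each library was a pool of 3 batches of genomic DNA of its cell type, so there was 1 library in each group and no spread between biological replicates. A difference between wt and βerko is therefore a difference between these 2 libraries, and no test between the genotypes could be made. Read numbers were at hand only for positions listed as differentially methylated (DMPs), and the depth behind every other percentage is unknown.

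Cytosine methylation is copied after replication by Dnmt1, which Uhrf1 brings to hemimethylated CpGs. Dnmt3a and Dnmt3b place new methyl groups, and the catalytically inactive Dnmt3l stimulates them in germ cells and early embryos. The Tet dioxygenases oxidise 5-methylcytosine, Tdg excises the oxidised forms, and base excision repair puts back an unmethylated cytosine. Gadd45a, a stress-response protein, has been linked to this repair. CpG-dense gene starts are usually free of methylation in mammalian cells, while transcribed gene bodies are usually methylated.

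The sequences that carry the main differences are given first, on mm9 and in the direction of the gene, with capitals for each CpG measured in both libraries. For Dnmt3a they are the stretch before an internal transcript start (chr12:3891577-3891727, plus strand), where the measured CpGs were less methylated in βerko, and the MspI fragment in which 1 CpG was more methylated in βerko (chr12:3866957-3867011, plus strand). For Tet1 it is the intronic MspI fragment with the run of less methylated CpGs (chr10:62349948-62350046, minus strand). The 150 bases before Tdg (chr10:82092423-82092572, plus strand) and before Tet2 (chr3:133207355-133207504, minus strand) are shown as unmethylated gene starts in both libraries.
Dnmt3a internal start: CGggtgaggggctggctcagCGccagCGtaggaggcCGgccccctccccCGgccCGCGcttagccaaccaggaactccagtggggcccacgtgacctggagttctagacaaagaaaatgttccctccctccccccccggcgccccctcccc
Dnmt3a hypermethylated fragment: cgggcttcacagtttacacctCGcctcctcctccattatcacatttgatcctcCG
Tet1 intron: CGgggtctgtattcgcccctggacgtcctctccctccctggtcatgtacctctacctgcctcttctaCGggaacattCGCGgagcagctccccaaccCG
Tdg upstream: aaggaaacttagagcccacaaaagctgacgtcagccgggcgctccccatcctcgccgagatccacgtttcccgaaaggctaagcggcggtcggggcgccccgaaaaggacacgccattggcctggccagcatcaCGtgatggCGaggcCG
Tet2 upstream: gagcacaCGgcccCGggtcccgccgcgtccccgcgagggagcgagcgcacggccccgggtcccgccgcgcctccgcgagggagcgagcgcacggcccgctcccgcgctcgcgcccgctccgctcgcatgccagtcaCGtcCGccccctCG
The Dnmt3a stretch of 151 bases held 10 CpGs, of which 7 were measured, and was 70.9% G and C. The 99 bases of Tet1 held 7 CpGs, 5 of them measured. The Tdg and Tet2 stretches held 16 and 30 CpGs, of which 3 and 5 were measured.

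The starts of 8 genes were unmethylated in both libraries. A position was called CpG-rich where the 500 bases around it had at least 50% G and C and an observed to expected CpG ratio of at least 0.6. At the starts of Dnmt1, Dnmt3a, Dnmt3b, Tet2, Tet3, Uhrf1, Tdg and Gadd45a, 374 CpG-rich positions averaged 0.724% methylation in wt against 0.537% in βerko. None of them was above 20% in wt, and 373 of the 374 were at or under 20% in βerko. Exactly 0% was measured at 303 of them in wt and at 318 in βerko.

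Among the methyltransferases, Dnmt3a (chr12:3806007-3914443, plus strand) had the longest measured start, with 165 CpG-rich positions between 630 and 2229 bases after the gene start. Their mean was 0.738% in wt and 0.738% in βerko. At Dnmt3b (chr2:153475186-153513466, plus strand) 60 CpG-rich positions from 34 bases before to 420 bases after the start had means of 1.16% and 0.898%, with a highest value of 13.9% in wt and 16.1% in βerko. Of the Dnmt3b positions, 61 also lay in the antisense gene 7530422B04Rik. At Dnmt1 (chr9:20711650-20757317, minus strand) 15 CpG-rich positions from 111 to 265 bases after the start had means of 1.29% in wt and 0% in βerko. The measured start of each methyltransferase thus lay near 0 in both cell types.

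Among the demethylation genes, Tdg (chr10:82092573-82113544, plus strand) was at 0% in both libraries at all 14 positions from 15 bases before to 295 bases after its start. Tet2 (chr3:133126643-133207354, minus strand) had 51 positions from 622 bases before to 42 bases after its start, with means of 0.610% and 0.193%. Tet3 (chr6:83312367-83391672, minus strand) had 17 CpG-rich start positions, with means of 0.338% and 0.227%. Gadd45a (chr6:66985090-66987451, minus strand) is the shortest of the genes, and its covered positions included coding exons as well as the start. Its 33 positions averaged 0.767% in wt and 0.667% in βerko, and no value was above 20% in either library. Of these, 26 also lay in the antisense gene E230016M11Rik. The start of Uhrf1 (chr17:56442744-56462909, plus strand) had 26 CpG-rich positions with means of 0.691% and 0.120%.

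The starts of the 2 remaining genes could not be described in this way. The start of Tet1 (chr10:62267318-62361866, minus strand) held no measured position, the nearest being 7981 bases into the gene. Dnmt3l (chr10:77504692-77526367, plus strand) held 7 measured positions in all, none of them CpG-rich.

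**Figure D1:**
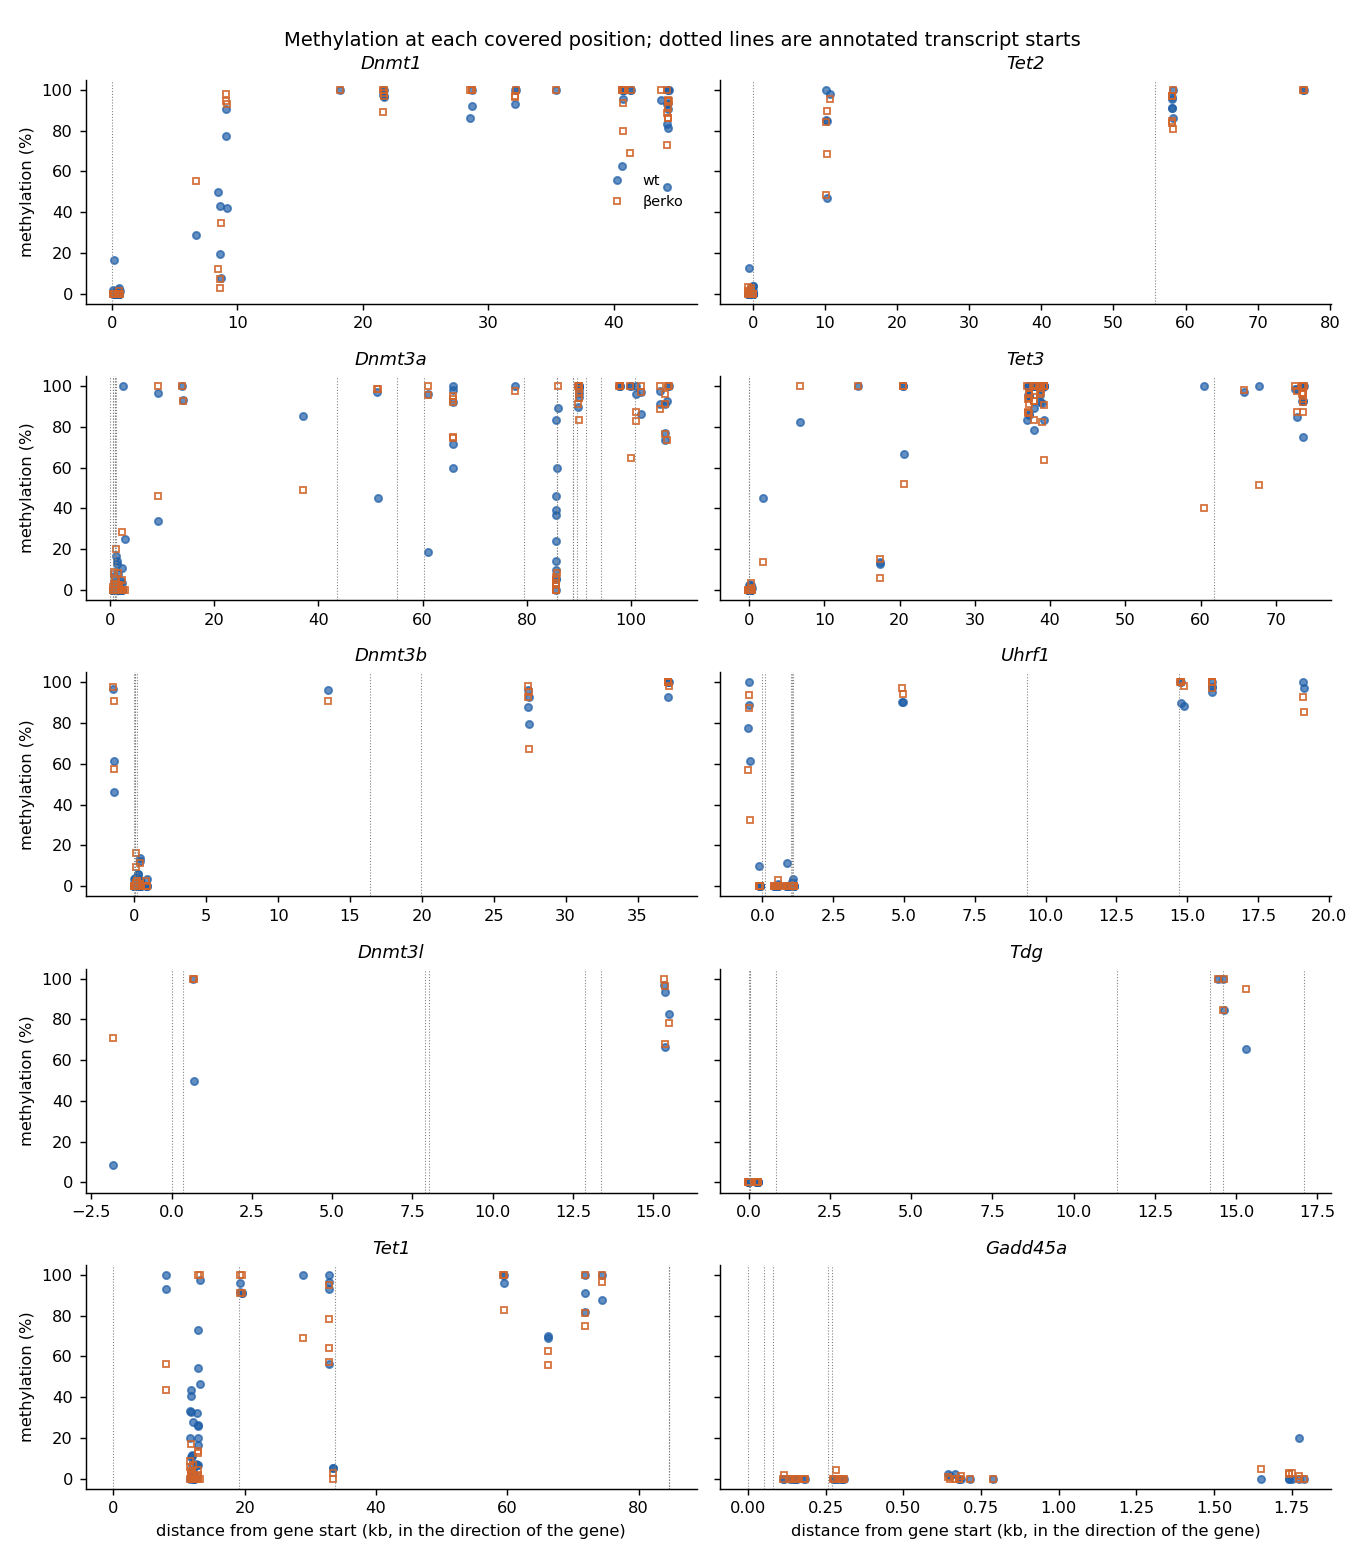
Methylation in percent (vertical axis) at every measured position of the 10 genes against the distance from the gene start in kilobases (horizontal axis, in the direction of the gene), with filled circles for wt, open squares for βerko and dotted lines at annotated transcript starts. The start positions of 8 genes lie near 0 in both libraries, 150 of the 267 positions outside CpG-rich windows lie above 80% in both, and the columns of points where the libraries separate are those of Dnmt3a before an internal start and of Tet1 in its first intron.

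Promoters and bodies were then compared across the 10 genes. The 2000 bases upstream held a measured position in 6 genes and none in Dnmt1, Dnmt3a, Tet1 and Gadd45a. Upstream means were 0.589% in wt and 0.223% in βerko over 44 positions of Tet2, 0.244% and 0% over 10 positions of Tet3, and 0% in both over 3 positions of Tdg. Dnmt3b was at 23.1% in wt and 27.4% in βerko over 9 positions, and Uhrf1 at 28.2% and 22.6% over 12. In these 2 genes the upstream positions were of 2 kinds, unmethylated next to the start and largely methylated farther away. For Dnmt3l the only upstream position, 1817 bases before the start and inside the neighbouring antisense gene Aire, was at 8.33% in wt and 70.7% in βerko.

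Body means ranged from 0.767% in Gadd45a to 81.7% in Dnmt3l in wt and from 0.667% to 90.4% in the same genes in βerko. Tet3 had body means of 73.6% in wt and 71.0% in βerko, Tet2 of 59.1% and 56.4%, and Dnmt1 of 50.7% and 51.2%. Uhrf1 was at 30.7% in both. Tdg was at 23.4% and 25.3%, Dnmt3a at 19.3% and 17.7%, and Dnmt3b at 13.7% and 13.4%. A body mean depended on how many of its positions lay in the unmethylated start, which was 165 of 219 in Dnmt3a. Outside the CpG-rich windows the same Dnmt3a gene averaged 76.1% in wt and 69.7% in βerko over 54 positions.

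By the mean over positions, the body was more methylated than the promoter in 5 of the 6 genes with both, in either library. Dnmt3b was the exception, joined in wt by Uhrf1 once the strands were merged, and the median of body minus promoter over the 6 was 40.9 percentage points in wt and 22.5 in βerko. Among 6521 protein-coding genes with at least 5 positions in each region, the body was higher in 78.3% in wt and 79.6% in βerko, with medians of 14.3 and 14.7 percentage points. The median over the 6 includes Dnmt3l, with its single upstream position. By the same minimum of 5 positions in each region, 4 of the genes remained (Dnmt3b, Tet2, Tet3 and Uhrf1), of which 3 had the higher body in each library, with medians of 30.5 percentage points in wt and 32.2 in βerko.

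No mean moved by 20 percentage points or more where at least 5 positions were measured. For bodies this was 0 of 10 genes in each direction, where 3.13% of 14623 protein-coding genes had a body mean lower in βerko by that much and 0.643% a higher one. For promoters it was 0 of 4 genes, where 4.93% of 7114 genes were lower and 0.478% higher. The median change of the 10 body means was -0.168 percentage points, beside -0.359 over all 14623 genes. Tet1 had the lowest change, from 44.5% to 34.3% over 58 positions, a difference of -10.2 percentage points. The 5th and 95th percentiles of all genes were -15.4 and 7.81 percentage points, and Tet1 lay between them. Dnmt3l had the highest, 8.70 percentage points over 6 positions, above that 95th percentile. It rested on an MspI site at 50% in wt and 100% in βerko, and was 1.28 percentage points without MspI sites. Medians over positions in place of means gave differences past 20 percentage points in 2 bodies, -27.7 in Tet1 and 20.7 in Dnmt1, where the mean difference was 0.540. These are gaps between the medians of the 2 libraries. The median of the differences at single positions was -3.93 in the Tet1 body and 0 in the Dnmt1 body.

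**Figure D2:**
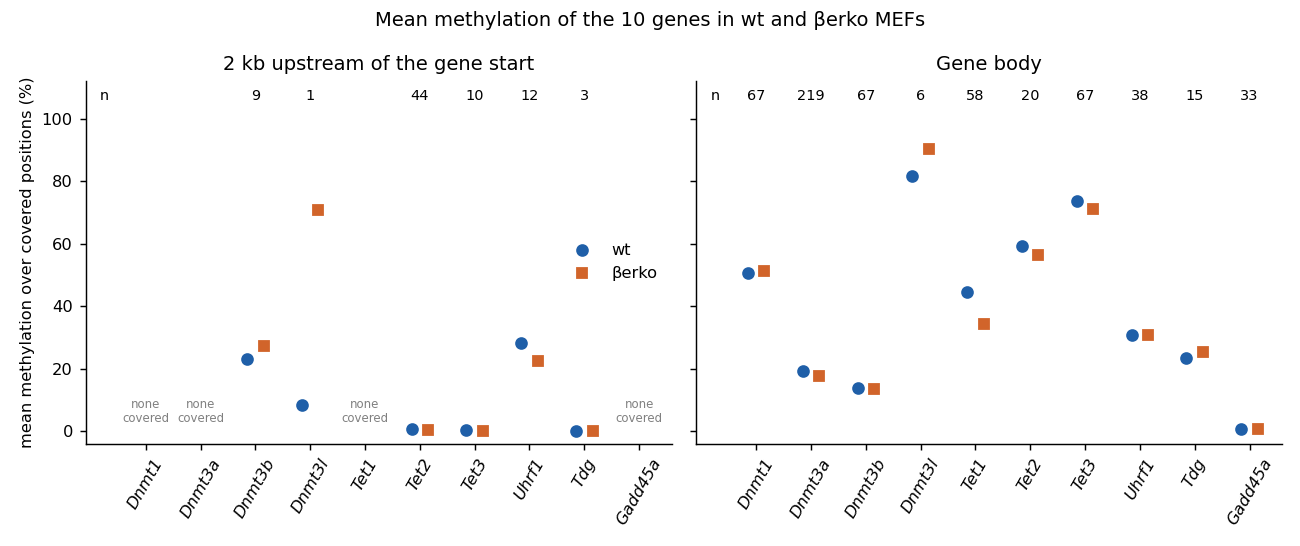
Mean methylation in percent (vertical axis) over the measured positions upstream (left) and in the body (right) of each gene, with circles for wt, squares for βerko and the number of positions above; no error bars are drawn because there was 1 library in each group. Upstream, only Dnmt3l, with 1 position, has its points far apart, and among the bodies Tet1 is at 44.5% in wt and 34.3% in βerko.

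Single positions differed more than the means did. Methylation was lower in βerko by at least 20 percentage points at 35 of the 669 positions and higher at 14. Over all 826937 positions 10.4% were lower and 6.81% higher by this measure, and the members' shares were 5.23% and 2.09%. A position below 20% in wt cannot fall by 20 percentage points. Such positions made up 66.4% of the members' and 50.3% of all positions, which limits the members' lower share. A position above 80% in wt cannot rise by as much, and these were 176 of the 669 and 268799 of the 826937. How far these limits account for the shares was not tested. Base composition moved with the counts of lower and higher positions. In CpG-rich windows 3 of 402 member positions were lower, or 0.746%, beside 8.62% of all CpG-rich positions. Of the 402, 391 were below 20% in wt, or 97.3%, beside 82.3% of all CpG-rich positions, so few could be called lower. Elsewhere 32 of 267 were lower, or 12%, beside 12.5% of all such positions, and 13 were higher, or 4.87%, beside 12.2%.

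Of the 35 lower positions 31 were intronic, among 361 intronic positions (8.59%), and 2 were upstream, among 79 (2.53%). By gene, 13 of 58 positions were lower in Tet1 (22.4%) and 10 of 219 in Dnmt3a (4.57%). The others were 4 of 67 in Dnmt1, 4 of 77 in Tet3, 2 of 50 in Uhrf1, 1 of 64 in Tet2 and 1 of 33 in Gadd45a. Among these genes only Tet1 had a share above the 10.4% of all positions. Of the 14 higher positions 5 were in Dnmt1 (7.46% of its positions), 3 in Dnmt3a (1.37%) and 2 in Dnmt3l (28.6% of 7). Dnmt3b, Tet1, Tet2 and Tdg held 1 each, among 76, 58, 64 and 18 positions. The cytosines of the MspI sites themselves, which lie at the ends of the sequenced fragments, made up 62.9% of the lower and 78.6% of the higher positions but 35.4% of all member positions. Over all positions of the series, 12% of those in MspI sites and 9.34% of the others were lower by at least 20 percentage points, and 9.72% and 4.94% were higher. The part of fragment ends in these differences was not tested.

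The 2 strands of a CpG gave the only repeat measurement in each library. Both strands were read at 69 member CpGs, and the gap between strands was under 20 percentage points at 67 of them in wt and 68 in βerko. Only 2 of these CpGs had a strand mean between 20% and 80% in wt, however, and none in βerko. CpGs with such a mean were also taken from all 70667 read on both strands. Their strands differed by 20 points or more in 38.9% of cases in wt and 39.4% in βerko. A CpG with 1 low and 1 high strand enters this group by its mean, which raises the share. Differences of that size thus also occurred between the strands of a CpG within a library. Of 4 member CpGs that moved by at least 20 points on either strand, 1 did so in the same direction on both, in Dnmt3a.

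**Figure D3:**
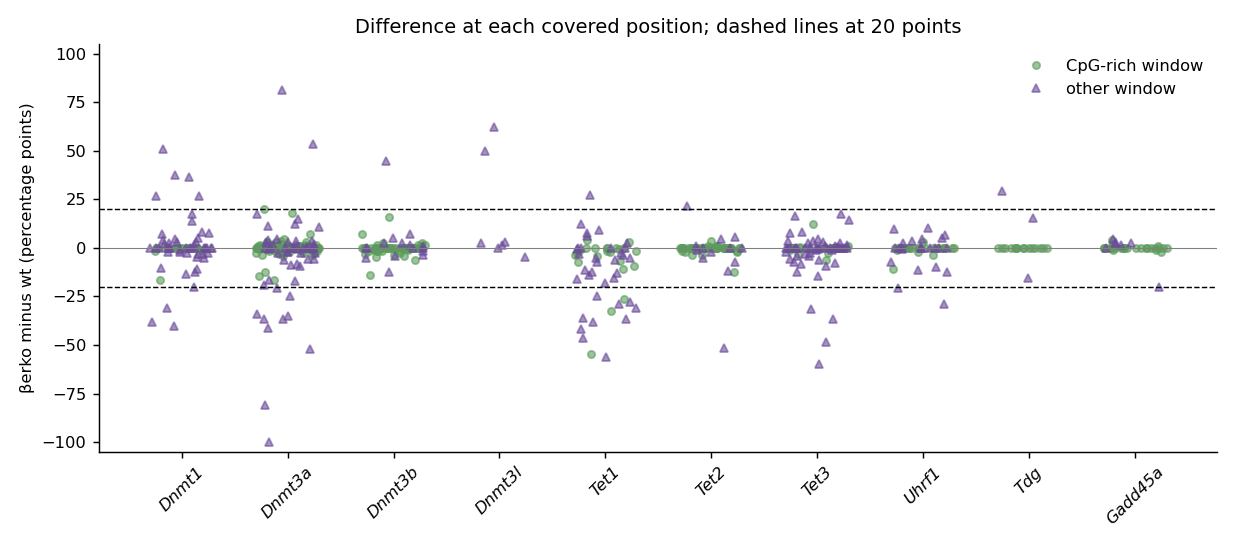
Difference in methylation, βerko minus wt in percentage points (vertical axis), at each of the 669 positions by gene, with circles for CpG-rich windows, triangles for other windows and dashed lines at 20 points in each direction; points are spread sideways for clarity. Most circles lie near 0, and the triangles below the lower line are most frequent in Tet1 and Dnmt3a.

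Neighbouring positions were therefore considered together. Stretches were made of positions no more than 500 bases apart, and those with at least 10 positions were kept, a measure set after the values had been seen. The 10 genes held 13 of them, and 9 were below 20% in both libraries. The mean was at least 10 percentage points lower in βerko in 2, the Dnmt3a internal start and the first intron of Tet1, and higher by as much in none. Of all 16065 such stretches 15.3% were lower and 3.08% higher, so that the members' share was near that of the whole table. The median change over the 13 was -0.417 percentage points and over all stretches -0.362.

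Dnmt3a is known to be read from an upstream start, which gives the long protein, and from an internal start, which gives the shorter Dnmt3a2 found in embryonic stem cells and germ cells. Transcripts Dnmt3a-005 and Dnmt3a-201 begin 85721 and 85737 bases after the gene start. Around them 12 positions in 4 MspI fragments, from 151 bases before to 239 bases after the start of Dnmt3a-005, averaged 34.4% in wt against 11.0% in βerko. In wt 5 of the 12 were below 20%, and in βerko 11 were.

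The first fragment of the printed Dnmt3a sequence was partly methylated in wt at 1 CpG, 125 bases before the start of Dnmt3a-005. Its plus strand was at 23.8% in wt and 3.12% in βerko, and its minus strand at 36.8% and 0%. The other positions of this fragment were between 5.26% and 14.3% in wt and between 0% and 6.06% in βerko. In the next fragment, 3 CpGs read together 102, 97 and 95 bases before the start were at 45.8%, 83.3% and 39.1% in wt. In βerko they were at 4.65%, 2.33% and 4.88%. At 82 bases after the start, in an annotated UTR, a position was at 60% in wt and 8.16% in βerko.

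The positions at 102, 97 and 95 bases before and 82 bases after the start formed a run of 4 consecutive positions that were each lower by at least 20 percentage points, with means of 57.1% in wt and 5.00% in βerko. The other end of the fragment that begins 82 bases after the start, at 239 bases, was at 89.5% in wt and 100% in βerko. Methylation near the internal start was thus partial in wt and near 0 in βerko, and the fragment's far end was methylated in both.

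The position 97 bases before the start (chr12, position 3891631, plus strand) was 1 of 2 DMPs in the 10 genes. A DMP had more than 4 reads in both libraries, under 20% methylation in either library and over 80% in the other. Of the 8071 positions that the paper counts as DMPs, 7747 had that many reads and were kept. The shares of DMPs given here use these 7747. Of 24 wt reads 20 were methylated, 83.3% (exact 95% interval 62.6 to 95.3%), and of 43 βerko reads 1 was, 2.33% (0.0589 to 12.3%). The reads of the 2 libraries differed by Fisher's exact test, two-sided, with p = 3.54e-12 and p = 8.97e-10 after Benjamini-Hochberg adjustment over all 826937 positions. DMPs are chosen for a large difference, and 7068 of all 7747 DMPs had an adjusted p under 0.05 in this test, so its outcome was largely set by the choice. The test compares reads of these libraries, and amplified reads are not independent molecules, so the intervals cover counting error only. It was a hypomethylated DMP, meaning methylated in wt and unmethylated in βerko. This kind made up 0.7% of all positions and 0.149% of the members'.

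The other DMP was hypermethylated in βerko. It lay in a retained-intron exon of Dnmt3a-003, 61004 bases after the gene start (chr12, position 3867011, minus strand), at the last CpG of the printed fragment. In wt 5 of 27 reads were methylated, 18.5% (6.30 to 38.1%), and in βerko 72 of 72, 100% (95 to 100%), with p = 1.41e-17 by the exact test and p = 6.75e-15 after adjustment. The neighbouring CpG of the same fragment, 32 bases away, was at 96.2% in wt and 95.8% in βerko. Of the 2 CpGs measured in this fragment, the difference was at that in the MspI site. Hypermethylated DMPs were 0.237% of all positions and 0.149% of the members'.

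A further Dnmt3a position, in an MspI site 2567 bases after the gene start, was at 100% in wt and 0% in βerko. Only 4 wt reads and 23 βerko reads covered it, and the exact interval of the wt value ran from 39.8 to 100%, so it did not meet the read minimum. The other end of its fragment was at 25.0% in wt and 0% in βerko. Elsewhere in the introns of Dnmt3a, 51424 bases after the start, an MspI site went from 45.1% to 98.5%, while the other end of the same fragment was at 97.1% and 98.6%. A position 36983 bases after the start was at 85.2% in wt and 48.8% in βerko.

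Tet1, the dioxygenase best known from embryonic stem cells, had the most positions lower in βerko. The stretch lay between the first and the second exon of Tet1-001, from 11613 to 13214 bases after the gene start (chr10:62348652-62350253). Its 35 positions in 8 MspI fragments averaged 19.2% in wt against 8.19% in βerko. The value was lower in βerko at 25 positions, higher at 5 and equal at 5. In wt 21 positions were below 20%, and in βerko 33 were.

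The CpG-rich positions of the stretch were the less methylated in both libraries. These 19 positions averaged 9.19% in wt and 0.777% in βerko, with a highest value of 54.5% in wt and 6.90% in βerko. The 16 other positions averaged 31.0% and 17.0%. In the printed Tet1 fragment 3 neighbouring CpGs, 11888, 11898 and 11900 bases after the gene start, were at 32.8%, 40.3% and 43.5% in wt. They were at 3.88%, 1.98% and 1.94% in βerko. The CpG at the fragment's end, 11918 bases after the start, was at 3.23% and 0%. The CpG at its other end, 11821 bases after the start, was read from the neighbouring fragment and was at 10.8% in wt and 17.1% in βerko.

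Toward the far edge of the Tet1 stretch, a position 12811 bases after the start was at 32.3% in wt and 0% in βerko. An MspI site at 12907 bases was at 54.5% and 0%, and another at 13214 bases at 46.3% and 0%. Against this direction, a position at 12876 bases was at 72.7% in wt and 100% in βerko. A position at 13191 bases was high in both libraries, at 97.6% and 100%. The edge of the stretch thus held positions of both directions.

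**Figure D4:**
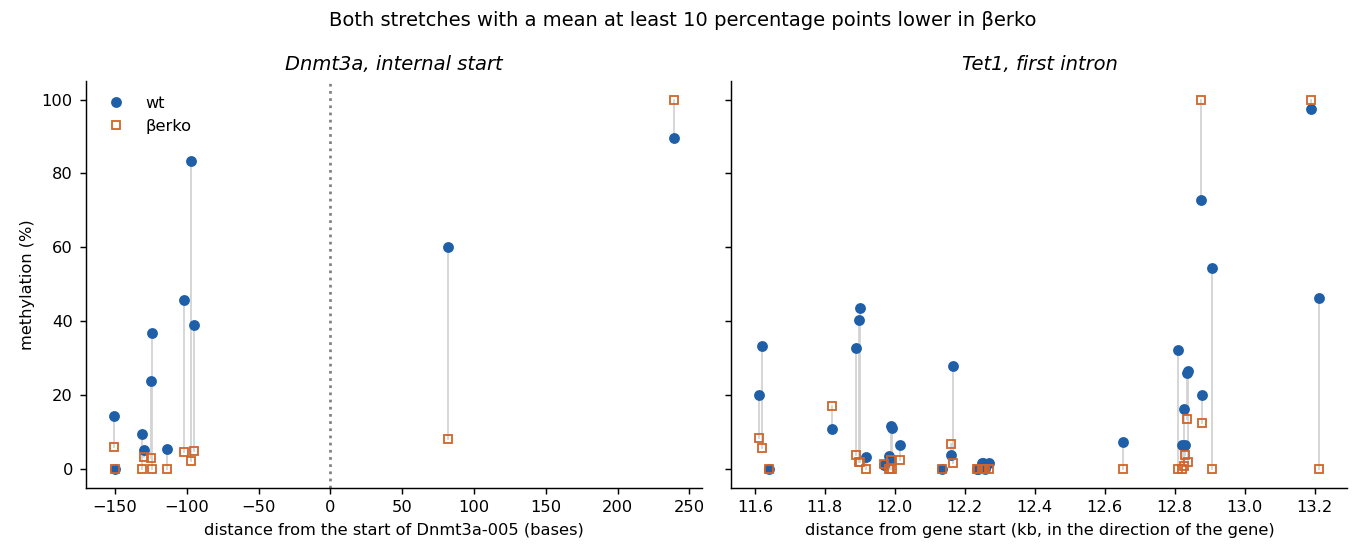
Methylation in percent (vertical axis) at each position of the Dnmt3a internal start (left, distance from the start of Dnmt3a-005 in bases) and of the Tet1 first intron (right, distance from the gene start in kilobases), with circles for wt, squares for βerko and a grey line joining the values of a position. Near the Dnmt3a start the wt values reach 83.3% and the βerko values stay at or under 8.16% up to 82 bases past it, and in Tet1 most squares lie below their circles.

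Elsewhere in Tet1, 2 positions of an intronic fragment, 7981 and 8002 bases after the start, were at 100% and 92.9% in wt and at 43.8% and 56.2% in βerko. Single intronic positions at 28897 and 32856 bases went from 100% to 69.1% and from 93.3% to 57.1%. The coding exon in which Tet1-201 and Tet1-202 begin was methylated in both libraries. Its 4 positions, 19238 to 19529 bases after the gene start, were above 90% in both libraries, although 3 of them lay in a CpG-rich window. Tet3 and Tdg also held CpG-rich positions that were methylated in both libraries. In Tet3 4 UTR positions had lowest values of 75.0% in wt and 87.5% in βerko, and in Tdg a coding position was at 100% in both.

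In Tet2 and Tet3 the libraries differed by 20 percentage points or more only in introns. In Tet3, which acts in the zygote and in neurons, 33 coding positions averaged 95.3% in wt and 95.2% in βerko, and 32 of them were above 80% in both. The 4 Tet3 positions that were lower lay in introns. They went from 100% to 40.0% at 60412 bases, from 100% to 51.7% at 67759 bases, from 100% to 63.6% at 39169 bases and from 45.3% to 13.8% at 1826 bases after the start. In Tet2, which is often mutated in blood cancers, 8 coding positions averaged 95.1% and 92.8%. Its intronic fragment 10108 to 10239 bases after the start held a position that went from 100% to 48.3% and another, at its other end, from 47.1% to 68.4%.

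Dnmt1, the maintenance enzyme, held differences of both directions within a single intron. Between 6688 and 9133 bases after the start, 8 positions were measured. An MspI site at 9133 bases was at 41.9% in wt and 93.0% in βerko, and the positions at 9099 and 9104 bases of the same fragment were at 77.3% and 90.7% in wt and at 94.7% and 98.2% in βerko. In contrast, the position at 8638 bases went from 42.9% to 2.86%, with its opposite strand at 19.4% and 7.22%. The positions at 8415 and 8726 bases went from 50% to 12% and from 7.69% to 34.6%. Most of the Dnmt1 body beyond this intron was highly methylated in both libraries, and its 10 positions between 43750 and 44367 bases averaged 89.0% and 91.0%. Within them a coding position at 44192 bases went from 52.4% to 88.7%.

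Of the cofactors, Uhrf1 differed by at least 20 percentage points at 2 of 50 positions and Dnmt3l at 2 of 7. Uhrf1 was lower in βerko at 2 upstream positions, which were the ends of a single fragment 505 and 455 bases before the start. They were at 77.8% and 61.5% in wt and at 57.1% and 32.5% in βerko, while the CpG between them was at 88.9% and 93.9% on the plus strand and 100% and 87.5% on the minus strand. In Dnmt3l the 3 coding positions averaged 85.7% and 88.0%, and an intronic MspI site 705 bases after the start was at 50% in wt and 100% in βerko. In Dnmt3b a position 1403 bases before the start was at 46.2% in wt and 90.9% in βerko, and the other end of its fragment at 96.8% and 97.8%.

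In Tdg, the glycosylase of oxidised and mismatched bases, 15 positions in the body and 3 upstream were measured. A single intronic MspI site, 15297 bases after the start, was at 65.7% in wt and 94.8% in βerko. The positions at 14603 and 14634 bases were at 100% and 84.6% in wt and at 84.6% and 100% in βerko. In Gadd45a 1 plus-strand position, 1775 bases after the start, was at 20.0% in wt and 0% in βerko, and its minus strand was at 0% and 1.35%.

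Other genes of the pathway were taken from a list of 46 partners, repair enzymes, cofactors, methyl donors' enzymes and readers, of which 45 held measured positions. The median promoter was at 1.25% in wt against 0.476% in βerko for the 23 genes with at least 5 positions, and their bodies 23.3% and 22.1% over 42 genes. By a mean lower in βerko by at least 20 percentage points, 1 of 23 promoters and 1 of 42 bodies were found, and none was higher. Among all protein-coding genes 4.93% of promoters and 3.13% of bodies were lower by that much, and 0.478% and 0.643% higher. The 45 genes held 8 hypomethylated DMPs among 1871 positions, or 0.428%, and no hypermethylated DMP, in 5 genes. Over all positions the shares were 0.7% and 0.237%.

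Among the glycosylases, the promoter of Neil2, which removes oxidised bases, was at 72.7% in wt and 43.5% in βerko over 10 positions of 3 fragments (gene at chr14:63801280-63812378, minus strand). Its largest differences were at 283 and 287 bases before the start, in 1 fragment, with 96.9% and 93.8% in wt and 30.0% and 24.0% in βerko. The 5 positions in the body of Neil2 averaged 96.3% in wt and 97.6% in βerko. Among the targeting partners, the body of Dppa3, which protects methylation in the early embryo, was at 67.4% in wt and 43.0% in βerko over 15 positions (gene at chr6:122576428-122580290, plus strand). It held a hypomethylated DMP, with 89.7% methylation in wt (39 reads) and 5.26% in βerko (19 reads).

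Among the repair genes, Xrcc1, the scaffold of single-strand break repair, held 3 hypomethylated DMPs in 1 upstream fragment (gene at chr7:25332169-25358457, plus strand). They lay 762, 755 and 728 bases before the start. They were at 81.2%, 93.8% and 83.3% in wt, with 16, 16 and 12 reads, and at 16.7%, 8.33% and 19.1% in βerko, with 12, 12 and 21 reads. The opposite strands did not all show this. For the CpG at 728 bases the opposite strand was at 100% in both libraries. For that at 755 bases it was at 90.9% in wt and 47.6% in βerko. The Xrcc1 promoter mean was 33.4% in wt and 14.6% in βerko over 17 positions, so that it did not reach the 20 percentage points.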

How the data were processed

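RRBS was made by the authors from MspI-cut DNA, with sequencing on an Illumina Genome Analyser IIx. Fragments of 160 to 340 base pairs were selected after adapters had been ligated, so that this size includes the adapters. Reads were handled with CASAVA 1.4 per the submitters' processing notes and mapped to mm9 on the Genomatix Mining Station, whose version is not given in the sources used here. The common table deposited by the authors gives the percent methylation of each cytosine in both libraries, without coverage, so the depth and precision of its values are unknown. The deposited DMP tables add the read count of each position. DMPs had between 5 and 259 reads in wt (median 23) and between 5 and 159 in βerko (median 43).

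All 826937 positions were the C of a CpG on NCBIM37 (mm9). Genes and transcripts were from GENCODE, with the promoter as the 2000 bases before the gene start. MspI fragments were predicted from CCGG, and the values of positions in a fragment come from shared reads and are not independent. Methylated reads of DMPs were the percent times the reads, whole within 0.05 reads at all 8071 listed positions. They were tested with Fisher's exact test, two-sided, adjusted over all 826937 positions with untested ones at p = 1, and given exact Clopper-Pearson intervals (SciPy 1.17.1, pandas 2.3.3, NumPy 2.4.6, pysam 0.24.0, Python 3.11.15). The tests were tested on simulated data. No other test was run, since each group had 1 library. Alternatives were other promoter bounds, merged strands, positions in MspI sites left out, medians, other thresholds and other stretch bounds. Every DMP, the position of each gene with the largest difference and runs of at least 3 positions that moved together were named, and other pathway genes where a mean over at least 5 positions moved by 20 percentage points or at least 3 DMPs were held; other positions were chosen after their values were seen. The members and lists were chosen with earlier results of these data known.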

Additional observations from a re-analysis of the deposited data

How the results depend on the processing

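No paired analysis was possible because each group had 1 library, and no library could be left out. A value counted as moved where it changed by 2 percentage points or more, or a count by over 1.5 times. Over all members, the mean change of promoters and of bodies did not move under any alternative run. The median of body minus promoter was 69.8 percentage points in wt and 64.4 in βerko with the promoter extended to 500 bases after the start (body higher in 8 and 8 genes), and 56.5 and 66.4 with promoters within 500 bases of any transcript start (9 and 8 genes). It was 43.3 in wt with strands merged (4 genes in wt, without Uhrf1, and 5 in βerko). More genes have a covered promoter under the wider bounds. Positions lower and higher numbered 65 and 30 at 10 percentage points, 13 and 3 without MspI sites, and 8 were higher at 30 percentage points. Shares over all positions at 10 and 30 percentage points are not given, so those counts have no background here. Without MspI sites the lower and higher shares were 3.01% and 0.694% of 432 positions. Over all positions outside MspI sites they were 9.34% and 4.94%, and the cause was not tested. DMPs fell to 0 and 0 at 10 and 90%, and 2 were hypomethylated without a read minimum. Other pathway genes with a lower promoter were 3 with at least 3 positions and 2 at 10 percentage points, where 2 bodies were lower. The shares over all genes under these settings are likewise not given. Stretches lower by 10 percentage points numbered 1 with strands merged and 1 without MspI sites, since the Dnmt3a stretch then had fewer than 10 positions (its 6 outside MspI sites averaged 33.0% in wt and 2.28% in βerko), alternatives chosen after seeing the data, like the other stretch bounds. Of the alternatives for single genes, 80 did not move and 21 did. The only main difference past 20 percentage points was the Dnmt3l promoter, 62.4 at 1 position. That position is in an MspI site, so the promoter had no value without MspI sites. Among the 21, smaller differences changed sign. Without MspI sites this was so in the Dnmt3b promoter (4.24 to -0.66), the Tet3 body (-2.61 to 0.332) and the Tdg body (1.94 to -1.71). Past 20 percentage points were the gaps between the library medians of the Tet1 body (-27.7) and the Dnmt1 body (20.7). So were the Tdg body, then 1 position, at 29.2 with promoters within 500 bases of any start, and the Dnmt3l promoter at 25.0 there. This 25.0 came from 2 other positions, 670 and 705 bases after the gene start, and not from the upstream position. The Dnmt3l body was at 0.547 there, at 1.28 without MspI sites and at 0.438 without abrupt positions. Depth limits every value outside the DMPs, since a percentage from few reads cannot be told from one of many.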
